A study of Homo sapiens with 48 samples.

Results

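The actin genes described here are 10 of the 327 genes measured in a pooled CRISPR knockout screen of human squamous carcinoma cells. They were chosen by name. Turnover genes, whose products supply, start, extend or dismantle actin filaments, are ACTB, ARPC2, ARPC1B, PFN1 and CFL1. Filament-binding genes, whose products bundle, cross-link or coat filaments, are FLNA, FSCN1, TPM1, TPM2 and CALD1. All 10 had a row in each of the 5 deposited tables, and no filter on low values was used.

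In a pooled knockout screen each cell carries a guide RNA that directs the nuclease Cas9 to cut 1 gene, and guides are counted in the DNA of the cells before and after growth. Negative values are read here as knockouts whose cells became rarer than those of the median gene, and positive values as knockouts whose cells became more frequent. The 3 lines were SCC13, from a skin carcinoma and spelled SCC-13 in the labels, CAL27, from a carcinoma of the tongue, and A431, an epidermoid carcinoma line spelled A-431. The groups were 16 SCC13 tumors, 10 CAL27 tumors and 8 A431 tumors, taken after about 2 months, 2 CAL27 cultures and 2 A431 cultures grown for 3 weeks, and 10 samples of initial cells. All groups, the initial cells included, carried Cas9 from the pLEX_Cas9 lentivirus under blasticidin selection and the same guide pool, given at a low multiplicity and selected with puromycin. Tumors grew from cells injected with Matrigel into the flanks, with NOD.Cg-Prkdcscid Il2rgtm1Wjl/SzJ mice as hosts for SCC13 and SHO mice for the other lines, so that SCC13 and its host strain cannot be told apart. Each line stands for a single cancer, and tumors are not assigned to mice in the labels.

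Actin is a protein that cycles between single subunits and filaments. Profilin hands subunits to growing ends, the Arp2/3 complex starts branches on existing filaments, and cofilin severs old filaments and frees their subunits. Tropomyosin and caldesmon lie along filaments and govern what else can bind them, while filamin and fascin tie filaments into networks and bundles. In keratinocytes and their carcinomas these proteins serve cell shape, adhesion, movement and division.

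The deposited values are log fold changes per gene against the initial cells, with a log base not given in the sources used here. They are called log units and were not turned into folds. Each value column, which stands for 1 tumor or culture, was centred on the median of its 327 genes, so that 0 is the median gene. Tumors and cultures are numbered below by their column, which the labels do not tie to a replicate number. As deposited, the columns were relative to the non-targeting guides, and their medians ran from -2.67 to 0.53. Each comparison was tested with limma on all 327 genes with Benjamini-Hochberg adjustment at 0.05, and "fell" and "rose" are used below only of genes past that threshold. Where columns are said to be divided by their SD, each was divided by its SD over genes and multiplied by the mean SD of all columns in that fit, so that differences on this divided scale stay in log units but are not in SDs. Depth is unknown, since the tables hold no counts. The SD over genes within a column was 1.89 to 2.87 in SCC13 tumors, 1.09 to 2.23 in CAL27 tumors, 0.42 to 1.34 in A431 tumors, 0.57 to 0.59 in CAL27 cultures and 0.50 to 0.51 in A431 cultures.

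Values of 2 kinds carry less information and are marked throughout. In 101 of the 120 pairs of SCC13 tumors, and in 6 of 45 pairs of CAL27 tumors but 0 of 28 pairs of A431 tumors, at least 4 genes with different values differed between both tumors by the same amount to 6 decimals. Such values are called at the floor: they do not tell how the gene itself differed between these tumors. A value at the floor need not be low. In every SCC13 column but the fifth and the eighth, the highest floor value lay above the median gene. It reached 5.61 log units in the third column and 4.51 in the seventh. An SCC13 tumor had 8 to 140 genes at the floor. In SCC13, the third value column stood apart, with a deposited median of 0.53 and a median floor value of 0.09 above the median gene, and the seventh had the 140 floor genes. Some values were also shared exactly by several genes of a column, which among the 10 actin genes concerned TPM2 and CALD1.

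Knockouts of most turnover genes fell in SCC13 and CAL27 tumors, and the filament-binding genes that passed in tumors rose. In SCC13 tumors 4 of 5 turnover genes fell (ACTB, ARPC2, PFN1 and CFL1), where 23.9% of all genes fell. In CAL27 tumors 3 of 5 fell (ARPC2, PFN1 and CFL1), where 22.0% of all genes fell. In A431 tumors 2 of 5 fell (ARPC2 and PFN1), where 11.9% of all genes fell, and ARPC1B rose.

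FSCN1, TPM1, TPM2 and CALD1 rose in SCC13 tumors, where 23.5% of all genes rose, FLNA and TPM2 rose in CAL27 tumors, where 18.7% of all genes rose, and TPM2 rose in A431 tumors, where 7.95% of all genes rose. By limma 0 of the 5 fell in tumors of any of the 3 lines, and 0 had an unadjusted p under 0.05 on the lower side. This depended on the centring: relative to the non-targeting guides, 2 fell, FLNA in SCC13 tumors (mean -1.66, limma adjusted p = 0.00262) and FSCN1 in CAL27 tumors (mean -0.93, limma adjusted p = 0.0442). On that scale 220 genes fell and 13 rose in SCC13 tumors, against 78 and 77 after centring, 164 fell and 18 rose in CAL27 tumors, against 72 and 61, and 73 fell and 7 rose in A431 tumors, against 39 and 26. By an exact sign-flip test 0 of the 327 genes passed in A431 tumors, and the smallest adjusted p among the actin genes was 0.0655, for PFN1. With 8 tumors this test has few sign patterns, so no gene could pass unless many others also reached the smallest possible p.

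The median of the 5 turnover genes was -2.65 log units in SCC13 tumors, -2.41 in CAL27 tumors and -0.71 in A431 tumors. That of the 5 filament-binding genes was 1.18, 0.84 and 0.30 in the same order of lines, and the median over all 327 genes was -0.02, 0.01 and 0.02. Within single tumors, the median turnover gene lay below the median filament-binding gene in 16 of 16 SCC13 tumors, 10 of 10 CAL27 tumors and 7 of 8 A431 tumors. No test was made over either set, because its members were chosen with results of these data known.

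**Figure D1:**
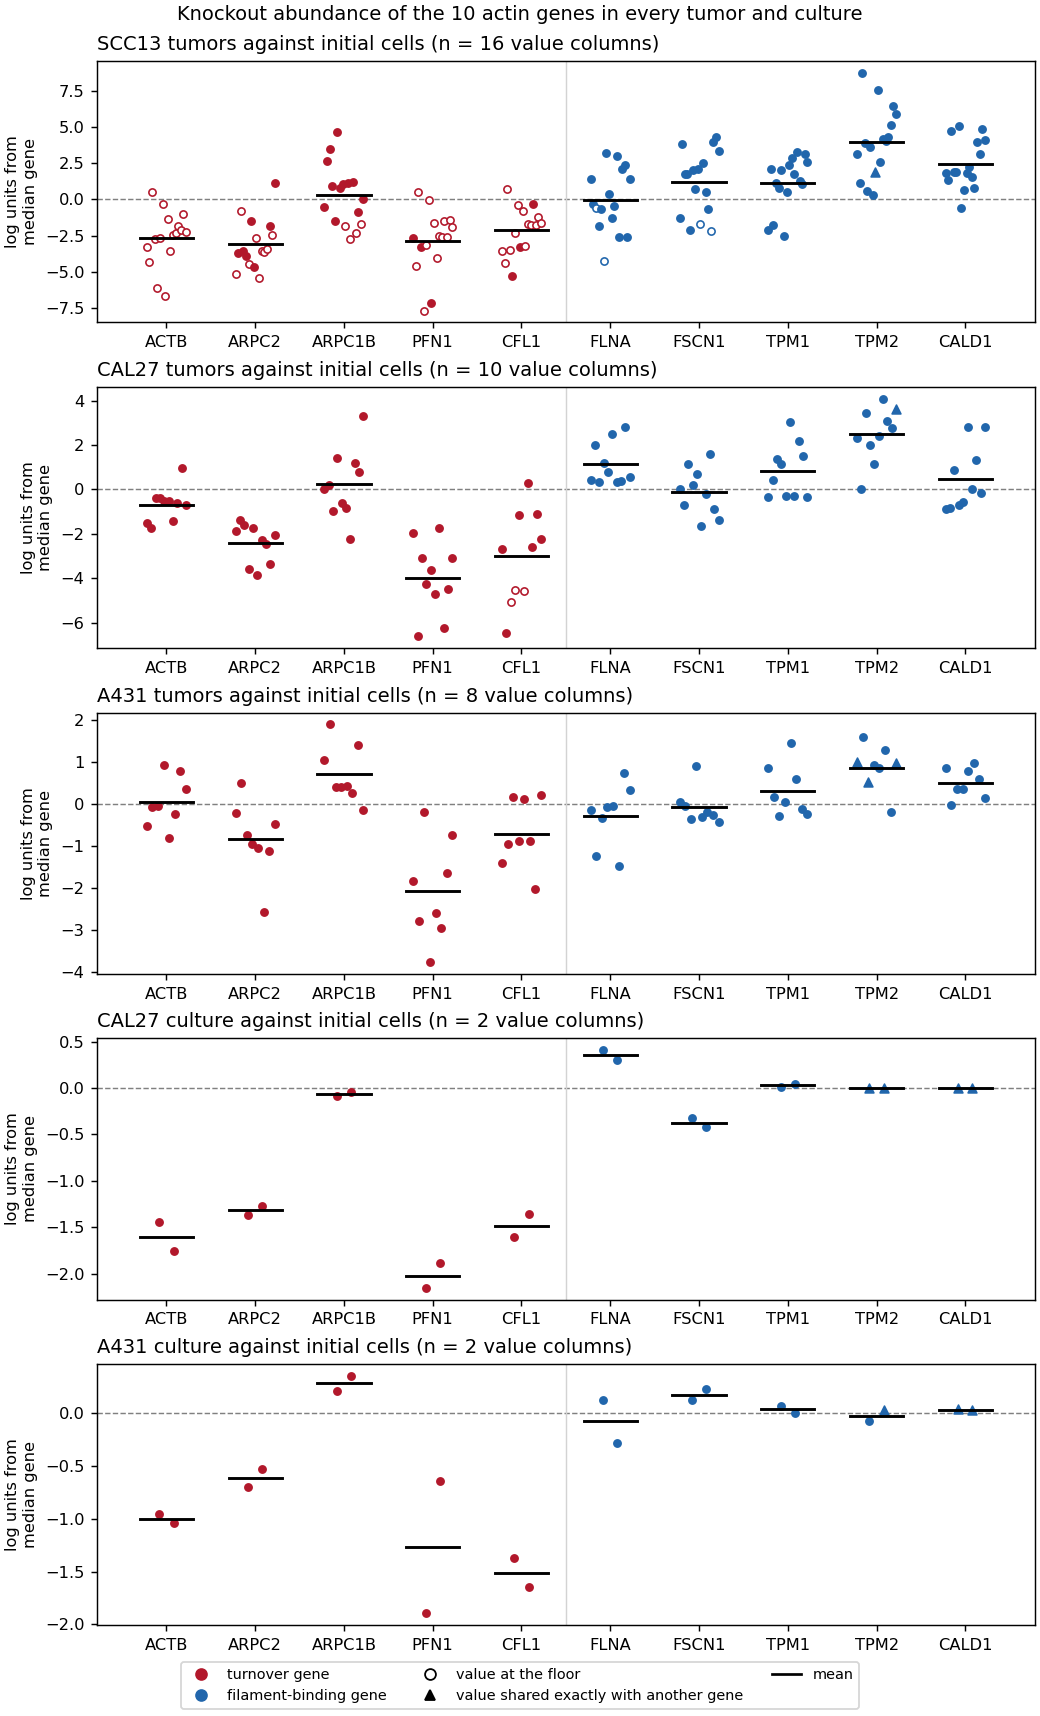
Log units from the median gene (y axis, 1 scale per panel) of the 5 turnover genes (red) and 5 filament-binding genes (blue) in every tumor and culture; bars are means, open circles are values at the floor and triangles are values shared exactly with another gene. TPM2 lies above 0 in all 16 SCC13 and all 10 CAL27 tumors, and PFN1 below 0 in all 10 CAL27 and all 8 A431 tumors.

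PFN1 encodes profilin-1, which binds actin subunits and feeds them to growing filament ends. In SCC13 tumors PFN1 ran from -7.67 to 0.48 with a median of -2.58 log units, and 13 of its 16 values were at the floor. The 1 value above 0 was a floor value of the third column. PFN1 averaged -2.89 ± 2.18 log units (SD, n = 16, limma adjusted p = 3.9e-07), which ranked 10 of 327 from the lowest.

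In CAL27 tumors PFN1 ran from -6.61 to -1.73 with a median of -3.94 log units, below 0 in 10 of 10 tumors. Its mean was -3.98 ± 1.62 log units (SD, n = 10, limma adjusted p = 5.85e-07), and 2 genes had lower means. In A431 tumors it ran from -3.77 to -0.19 with a median of -2.22 log units. All 8 values lay below the median gene, and the mean was -2.07 ± 1.20 log units (SD, n = 8, limma adjusted p = 0.00096), the fifth-lowest of 327.

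CAL27 cultures gave -2.15 and -1.89 log units for PFN1, a mean of -2.02 ± 0.18 (SD, n = 2, limma adjusted p = 0.00733), ranking 6 of 327. A431 cultures gave -1.90 and -0.64 log units, a mean of -1.27 ± 0.89 (SD, n = 2) that did not pass (limma adjusted p = 0.0922). PFN1 passed in A431 with both culture tables in 1 fit (limma adjusted p = 0.0209), which shares the spread of both lines. The first A431 culture alone was at -1.90 log units. A fit without the second takes its spread for the gene from the CAL27 cultures. The CAL27 call was lost without either culture, in fits that took this spread from the A431 cultures. PFN1 was below 0 in 37 of 38 columns. It was the lowest of the 10 actin genes in 4 of 16 SCC13 tumors, 6 of 10 CAL27 tumors and 6 of 8 A431 tumors.

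ARPC2 and ARPC1B encode subunits of the Arp2/3 complex. The ARPC2 protein is part of the complex's core and touches the mother filament, and ARPC1B is 1 of a pair of alternative forms of another subunit, whose partner form ARPC1A was not analysed here. ARPC2 fell in all 5 tables, as did 9 genes in all, and ARPC1B fell in none. ARPC2 was the lower of both in 37 of 38 columns.

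In SCC13 tumors ARPC2 ran from -5.40 to 1.12 with a median of -3.54 log units, and 9 of 16 values were at the floor. The 1 tumor above 0 was the sixteenth column, which was not at the floor. ARPC2 averaged -3.08 ± 1.70 log units (SD, n = 16, limma adjusted p = 2.56e-08), ranking 7 of 327 and lowest of the 10 actin genes in 8 of 16 tumors.

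In CAL27 tumors ARPC2 ran from -3.83 to -1.36 with a median of -2.16 log units. All 10 values were below 0, and the mean was -2.41 ± 0.87 log units (SD, n = 10, limma adjusted p = 5.09e-06). In A431 tumors it ran from -2.56 to 0.49 with a median of -0.85 log units, below 0 in 7 of 8. The mean there was -0.83 ± 0.88 log units (SD, n = 8, limma adjusted p = 0.0448). This call was lost when any 1 of 7 of the 8 tumors was left out, all but the second, with means between -0.92 and -0.58 log units without them.

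The cultures of a line gave ARPC2 values close to each other. CAL27 cultures held -1.37 and -1.27 log units (mean -1.32 ± 0.07, SD, n = 2, limma adjusted p = 0.00733), and A431 cultures -0.70 and -0.53 (mean -0.61 ± 0.12, SD, n = 2, limma adjusted p = 0.0417). The A431 call was lost without either culture, at -0.53 and -0.70 log units (limma adjusted p = 0.0761 and 0.0559), and with columns divided by their SD (limma adjusted p = 0.0544).

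ARPC1B did not pass in SCC13 or CAL27 tumors. It averaged 0.28 ± 2.12 log units in SCC13 tumors (SD, n = 16, limma adjusted p = 0.666), but -1.34 against the non-targeting guides (limma adjusted p = 0.0214), and 0.23 ± 1.54 in CAL27 tumors (SD, n = 10, limma adjusted p = 0.715). Single tumors were spread to both sides, between -2.74 and 4.64 in SCC13, where 4 values were at the floor, and between -2.21 and 3.33 in CAL27.

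ARPC1B rose in A431 tumors, where it ran from -0.15 to 1.89 with a median of 0.42 log units. It was above 0 in 7 of 8 tumors, with a mean of 0.71 ± 0.67 log units (SD, n = 8, limma adjusted p = 0.0448). Against the non-targeting guides the mean was 0.43 and did not pass (limma adjusted p = 0.215). Leaving out any 1 of the first 5 tumors or the seventh also ended the call, with means between 0.54 and 0.75 log units. ARPC1B gave -0.08 and -0.04 log units in CAL27 cultures and 0.22 and 0.36 in A431 cultures, and neither mean passed.

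CFL1 encodes cofilin-1, the filament-severing protein of non-muscle cells. In SCC13 tumors CFL1 ran from -5.25 to 0.71 with a median of -1.75 log units, and 13 of 16 values were at the floor. It averaged -2.14 ± 1.61 log units (SD, n = 16, limma adjusted p = 4.88e-05), and its 1 value above 0 was a floor value of the third column.

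In CAL27 tumors CFL1 ran from -6.45 to 0.29 with a median of -2.63 log units, with 3 of 10 values at the floor. CFL1 averaged -3.00 ± 2.10 log units (SD, n = 10, limma adjusted p = 8.81e-05), the eleventh-lowest mean, and the seventh tumor alone was above 0. In A431 tumors it ran from -2.03 to 0.21 with a median of -0.89 log units. There 5 of 8 tumors were at -0.89 or below and 3 lay between 0.11 and 0.21, and the mean of -0.71 ± 0.81 log units (SD, n = 8) did not pass (limma adjusted p = 0.0628), while -0.99 against the non-targeting guides did (limma adjusted p = 0.0144).

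CFL1 fell in the cultures of both lines. CAL27 cultures gave -1.61 and -1.36 log units (mean -1.48 ± 0.18, SD, n = 2, limma adjusted p = 0.00733), and A431 cultures -1.37 and -1.65 (mean -1.51 ± 0.20, SD, n = 2, limma adjusted p = 0.0104). The difference of the means was 0.03 log units with a 95% interval of -0.37 to 0.43. In A431 cultures CFL1 had the lowest mean of the 10 actin genes, ranking 8 of 327.

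ACTB encodes beta-actin itself, 1 of 2 cytoplasmic actins. The partner gene ACTG1 was not among the 327 genes measured. In SCC13 tumors ACTB ran from -6.66 to 0.54 with a median of -2.38 log units. All 16 values were at the floor, which held for 1 other of the 327 genes, CDK1, the kinase that drives entry into mitosis. Over all 327 genes, the median number of tumors at the floor was 3 of 16. ACTB averaged -2.65 ± 1.89 log units (SD, n = 16, limma adjusted p = 1.26e-06), ranking 15 of 327. Since all 16 were floor values, this SD and p do not measure how ACTB itself varied between tumors.

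In CAL27 tumors ACTB ran from -1.72 to 0.96 with a median of -0.57 log units and a mean of -0.68 ± 0.76 (SD, n = 10), which did not pass (limma adjusted p = 0.0844). There 9 of 10 values were below 0, and without the ninth tumor, the 1 above 0, the mean of -0.86 passed (limma adjusted p = 0.0314), as did -1.49 against the non-targeting guides (limma adjusted p = 0.000876). In A431 tumors ACTB ran from -0.82 to 0.92 with a median of -0.06 log units. Its mean of 0.04 ± 0.61 (SD, n = 8, limma adjusted p = 0.898) had a 95% interval of -0.43 to 0.52.

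In culture ACTB fell in both lines. CAL27 cultures gave -1.45 and -1.76 log units (mean -1.60 ± 0.22, SD, n = 2, limma adjusted p = 0.00739), and A431 cultures -0.96 and -1.04 (mean -1.00 ± 0.06, SD, n = 2, limma adjusted p = 0.0129). The A431 call was lost without either culture, at -1.04 and -0.96 log units (limma adjusted p = 0.0536 and 0.0616).

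**Figure D2:**
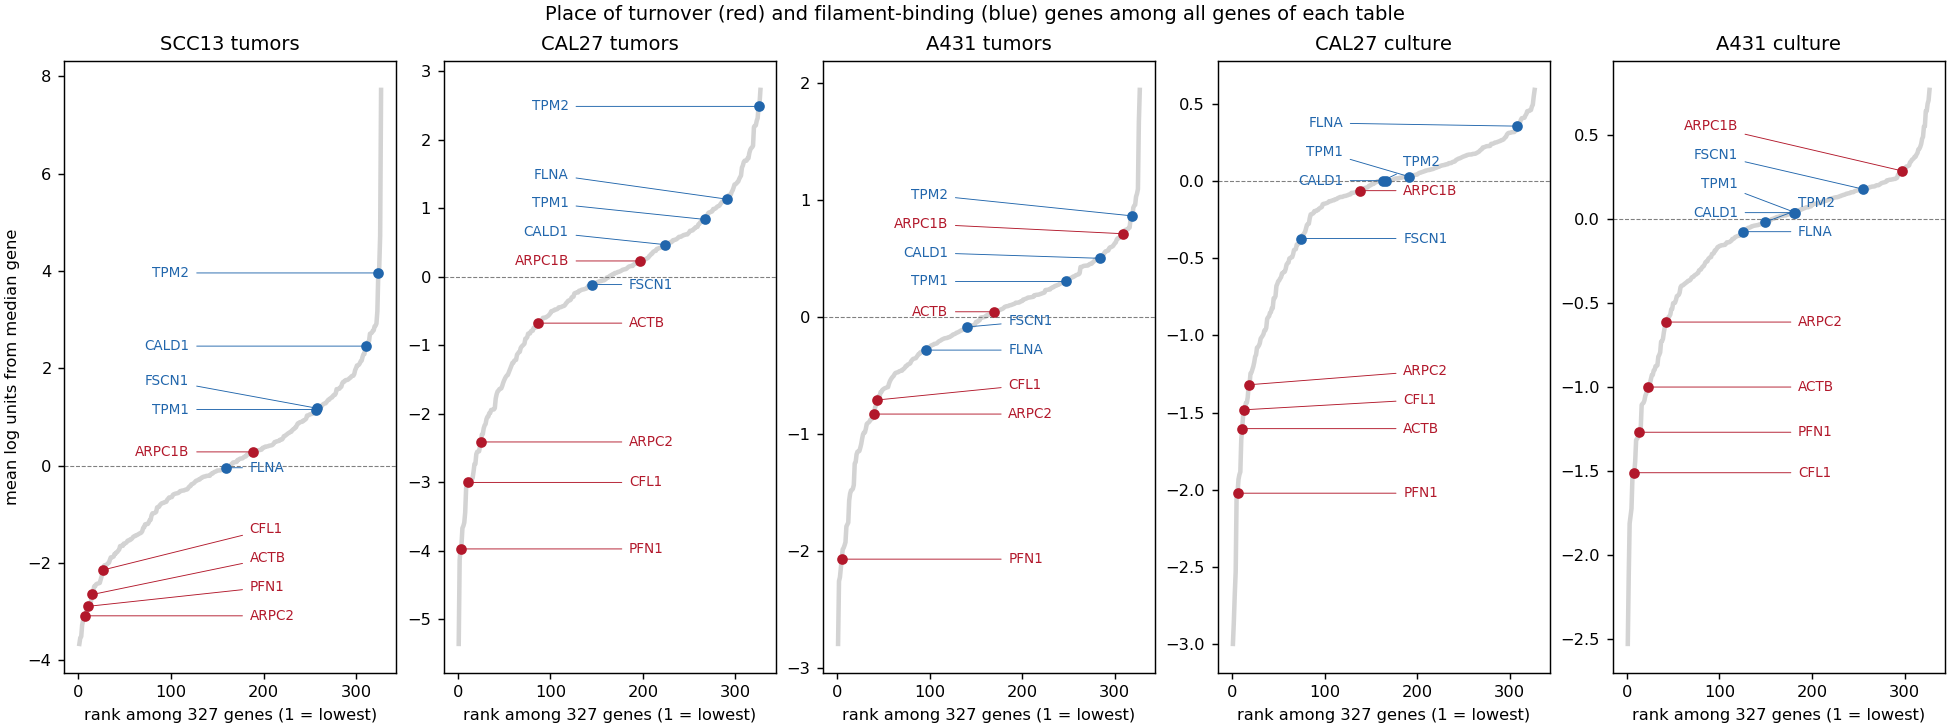
Mean log units from the median gene (y axis) of all 327 genes of each table in rank order (x axis, 1 is lowest; grey line), with the turnover genes in red and the filament-binding genes in blue. PFN1 ranks 10, 3, 5, 6 and 13 from the lowest in SCC13, CAL27 and A431 tumors and in CAL27 and A431 cultures, while TPM2 ranks 4, 3 and 9 from the highest in the 3 tumor tables and lies beside the median gene in both cultures.

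TPM2 encodes beta-tropomyosin, a rod-like protein that lies along actin filaments. It was the 1 actin gene that rose in tumors of all 3 lines, as did 9 of the 327 genes. In SCC13 tumors TPM2 ran from 0.28 to 8.72 with a median of 3.97 log units, above 0 in 16 of 16 and never at the floor. The value of 1.90 in the eighth was shared exactly with IRX3. The mean was 3.96 ± 2.41 log units (SD, n = 16, limma adjusted p = 1.44e-10), the fourth-highest, and TPM2 was the highest of the 10 actin genes in 10 of 16 tumors. The tumor with the 8.72 was the third column, in which the median floor value was above the median gene. Without the third and seventh columns, left out after their values were seen, the mean was 3.88.

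In CAL27 tumors TPM2 ran from 0.01 to 4.09 with a median of 2.58 log units. All 10 values were above 0, with 1 shared exactly with DMKN, and the mean was 2.49 ± 1.22 log units (SD, n = 10, limma adjusted p = 1.94e-05), the third-highest of 327. In A431 tumors it ran from -0.20 to 1.59 with a median of 0.94 log units, above 0 in 7 of 8, and averaged 0.86 ± 0.53 (SD, n = 8, limma adjusted p = 0.0121). Of the 8 values, 3 were shared exactly with other genes: with FAM213A, HDAC1, INHBA, KRT6A and USF2 in the first tumor, with SERPINB1 in the third and with IRX3 in the eighth. With shared values left out, or with the deposited values (mean 0.59, limma adjusted p = 0.0745), the call in A431 was lost.

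In culture TPM2 lay beside the median gene. It gave 0.002 and 0.001 log units in CAL27 cultures, which is -0.48 on average against the non-targeting guides, and -0.07 and 0.03 in A431 cultures. In both CAL27 cultures and in the second A431 culture this value was shared exactly with 6 to 9 other genes, CALD1 among them.

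CALD1 encodes caldesmon, which binds actin together with tropomyosin. In SCC13 tumors it ran from -0.57 to 5.05 with a median of 1.87 log units and was never at the floor. CALD1 averaged 2.46 ± 1.68 log units (SD, n = 16, limma adjusted p = 4.12e-06), above 0 in 15 of 16 tumors, all but the seventh column. Against the non-targeting guides the mean was 0.84 and did not pass (limma adjusted p = 0.124).

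CALD1 did not pass in the other tumors. It averaged 0.47 ± 1.43 log units in CAL27 (SD, n = 10, limma adjusted p = 0.372), with 5 of 10 tumors above 0, and 0.50 ± 0.35 in A431 (SD, n = 8, limma adjusted p = 0.0659), with 7 of 8 above 0. With columns divided by their SD over genes CALD1 passed in A431 (limma adjusted p = 0.0477). In the 4 cultures it lay between 0.001 and 0.04 log units, each time at a value shared exactly with other genes.

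TPM1 encodes alpha-tropomyosin. In SCC13 tumors it ran from -2.54 to 3.25 with a median of 1.51 log units, above 0 in 13 of 16, and averaged 1.15 ± 1.82 (SD, n = 16, limma adjusted p = 0.0302), but -0.47 against the non-targeting guides (limma adjusted p = 0.4). The 3 below 0 were columns 1, 3 and 7, and without the third and the seventh the mean was 1.62 (limma adjusted p = 0.00241). TPM1 averaged 0.84 ± 1.20 log units in CAL27 tumors (SD, n = 10) and 0.30 ± 0.61 in A431 tumors (SD, n = 8), and neither passed (limma adjusted p = 0.0723 and 0.371). Without the seventh CAL27 tumor the mean of 0.96 there passed (limma adjusted p = 0.0494). It lay at 0.01 and 0.04 log units in CAL27 cultures and at 0.08 and 0.00 in A431 cultures. TPM1 was below TPM2 in 28 of 38 columns.

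FSCN1 encodes fascin, which packs filaments into the tight bundles of filopodia. In SCC13 tumors it ran from -2.17 to 4.29 with a median of 1.74 log units, above 0 in 11 of 16, with 2 of the 5 lower values at the floor. FSCN1 averaged 1.18 ± 2.21 log units (SD, n = 16, limma adjusted p = 0.0331), but -0.44 against the non-targeting guides (limma adjusted p = 0.461). Without the third and seventh columns the mean was 1.17 and no longer passed (limma adjusted p = 0.0663). Leaving out single tumors ended the call on FSCN1 for 8 of the 16 and that on TPM1 for 6, with means between 0.97 and 1.14 for FSCN1 and between 1.01 and 1.09 for TPM1.

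FSCN1 was near the median gene in the other tumors, at -0.11 ± 1.06 log units in CAL27 (SD, n = 10, limma adjusted p = 0.826) and -0.09 ± 0.43 in A431 (SD, n = 8, limma adjusted p = 0.786). In CAL27 cultures FSCN1 fell, with values of -0.32 and -0.42 log units and a mean of -0.37 ± 0.07 (SD, n = 2, limma adjusted p = 0.0445). It was the 1 filament-binding gene that fell in any of the 5 tables by limma. The call was lost without either culture (limma adjusted p = 0.198 and 0.325) and with columns divided by their SD (limma adjusted p = 0.0518). A431 cultures gave 0.13 and 0.23 log units, which did not pass.

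FLNA encodes filamin A, which cross-links filaments into loose networks and ties them to membrane proteins, integrins among them. In SCC13 tumors FLNA averaged -0.04 ± 2.17 log units (SD, n = 16, limma adjusted p = 0.948). Single tumors lay between -4.22, a floor value, and 3.17, and 2 of 16 values were at the floor. Against the non-targeting guides the SCC13 mean was -1.66 and passed as lower (limma adjusted p = 0.00262). In CAL27 tumors it ran from 0.33 to 2.80 with a median of 0.67 log units. All 10 values were above 0, and the mean was 1.13 ± 0.96 log units (SD, n = 10, limma adjusted p = 0.00872), but 0.32 against the non-targeting guides (limma adjusted p = 0.41).

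In A431 tumors FLNA averaged -0.28 ± 0.75 log units (SD, n = 8, limma adjusted p = 0.445). It was at 0.41 and 0.30 log units in CAL27 cultures (mean 0.35 ± 0.08, SD, n = 2, limma adjusted p = 0.0503) and at 0.13 and -0.28 in A431 cultures, and neither mean passed. With shared values left out FLNA passed in CAL27 cultures (limma adjusted p = 0.0114).

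In culture, 4 of 5 turnover genes fell in CAL27 cells (ACTB, ARPC2, PFN1 and CFL1), where 18.7% of all genes fell and 4.89% rose. In A431 cells 3 of 5 fell (ACTB, ARPC2 and CFL1), where 11.3% of all genes fell and 2.14% rose. The turnover median was -1.48 log units in CAL27 and -1.00 in A431 cultures, and the filament-binding median 0.00 and 0.04. By limma 0 of the 10 actin genes rose in either culture, with 1, FLNA, at an unadjusted p under 0.05 on the higher side in CAL27 and 0 in A431.

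Whether a knockout of an actin gene had different values in tumors and in cultures was compared in the 2 lines grown in both. Growth was longer in tumors than in cultures, and the labels list separate initial samples for each. Setting, growth time and initial samples therefore cannot be told apart in this comparison, and their shares in a difference were not tested. By the limma fit that gives tumors and cultures 1 common spread, 0 of the 10 genes passed in CAL27 and 0 in A431, and of all 327 genes 0% were lower and 0% higher in each. At an unadjusted p under 0.05 there were 30 genes in CAL27, TPM2 among them, and 20 in A431, ACTB among them.

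ACTB lay higher in tumors than in cultures by value. In CAL27 cells ACTB averaged -0.68 ± 0.76 log units in tumors and -1.60 ± 0.22 in cultures (SD, n = 10 and 2), a difference of 0.93 with 9 of 10 tumors above the culture mean (limma adjusted p = 0.75). In A431 cells it averaged 0.04 ± 0.61 log units in tumors and -1.00 ± 0.06 in cultures (SD, n = 8 and 2). All 8 A431 tumors lay above the A431 culture mean, and the difference of 1.04 log units had a 95% interval of 0.06 to 2.02 (limma adjusted p = 0.697). Both calls were made by 2 other fits. With an own spread per group the limma adjusted p was 0.0313 in CAL27 and 0.00857 in A431, and with each column divided by its SD over genes 0.00171 and 0.0244.

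TPM2 was also higher in tumors of both lines by value. In CAL27 cells TPM2 averaged 2.49 ± 1.22 log units in tumors (SD, n = 10) and 0.002 over both cultures, with 10 of 10 tumors above the culture mean. The difference of 2.49 log units had a 95% interval of 0.72 to 4.25 (limma adjusted p = 0.269, and 3.68e-05 with an own spread per group). In A431 cells it averaged 0.86 ± 0.53 log units in tumors and -0.02 ± 0.07 in cultures (SD, n = 8 and 2), with 7 of 8 tumors above the culture mean (limma adjusted p = 0.811, and 0.0201 with an own spread per group). Both CAL27 culture values of TPM2 and 1 of the 2 in A431 are exactly shared ones, as given above.

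PFN1, ARPC2 and CFL1 were lower in CAL27 tumors than in CAL27 cultures by value, but this order turned with the scale. PFN1 averaged -3.98 ± 1.62 log units in CAL27 tumors and -2.02 ± 0.18 in cultures (SD, n = 10 and 2), with 8 of 10 tumors below the culture mean (limma adjusted p = 0.6, and 0.00206 with an own spread per group). ARPC2 differed by -1.09 log units and CFL1 by -1.52, with 10 and 7 of 10 tumors below the culture mean. On the divided scale, that is with the mean SD of the columns multiplied back, the differences were 1.61 for PFN1, 1.25 for ARPC2 and 1.28 for CFL1, the opposite sign, and none passed. With an own spread per group ARPC2 and CFL1 passed as lower in CAL27 tumors (limma adjusted p = 0.0137 and 0.031). In A431 cells CFL1 was higher in tumors by 0.80 log units (limma adjusted p = 0.889), which passed on the divided scale at 1.98 (limma adjusted p = 0.0244). Tumor columns were the wider ones, with SDs over genes of 1.09 to 2.23 in CAL27 tumors and 0.57 to 0.59 in CAL27 cultures; the part of this width in the differences was not tested beyond that scaling.

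**Figure D3:**
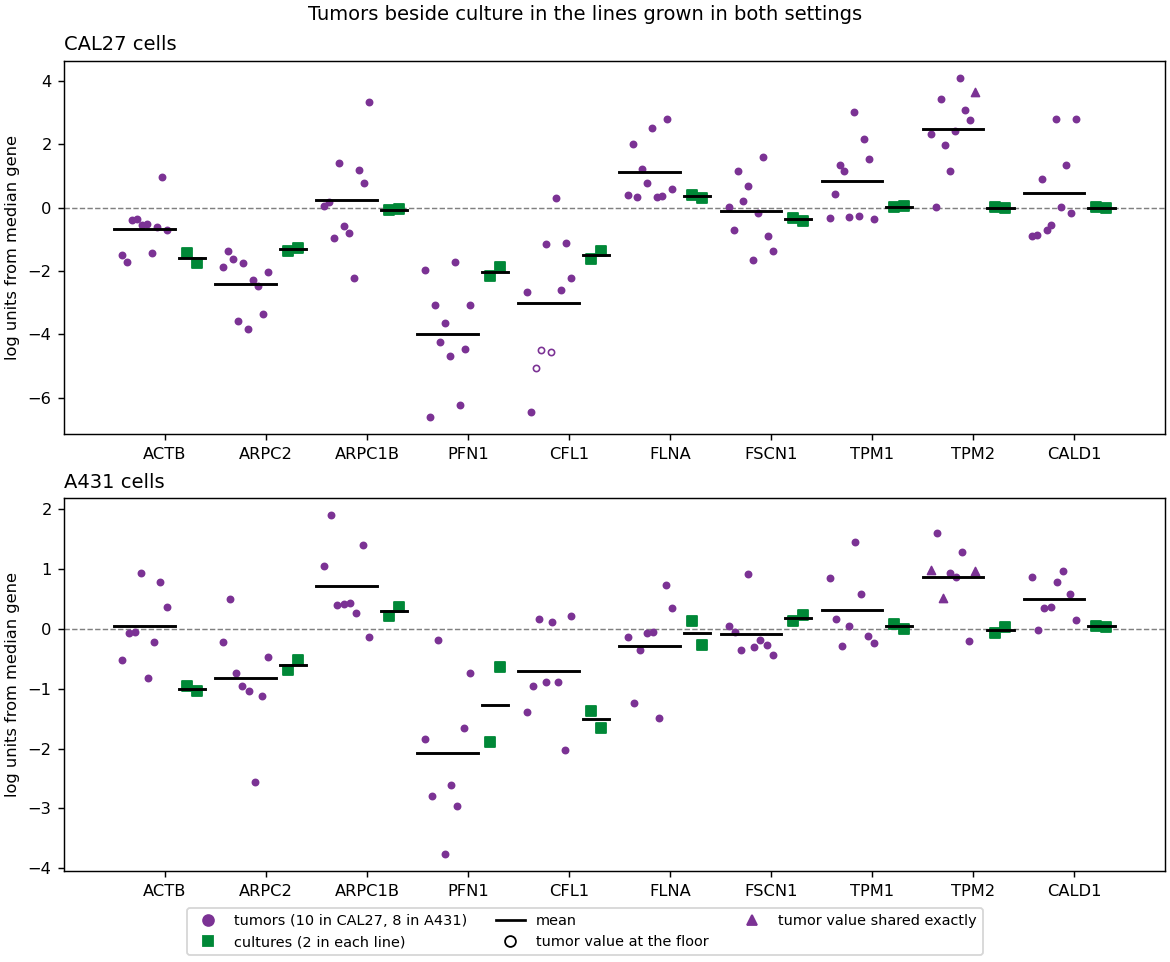
Log units from the median gene (y axis) of each actin gene in tumors (purple, left of each pair) and cultures (green squares) of CAL27 cells (upper panel) and A431 cells (lower panel); bars are means. TPM2 in all 10 CAL27 tumors lies above the mean of the CAL27 cultures, whose 2 TPM2 values are shared exactly with other genes. ACTB in A431 tumors (-0.82 to 0.92) lies above the mean of the A431 cultures (-0.96 and -1.04).

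Lines were compared by their tumors in 1 fit. SCC13 tumors differed from A431 tumors in 4 of the 10 actin genes: ACTB and ARPC2 were lower, where 10.7% of all genes were lower, and TPM2 and CALD1 were higher, where 10.4% of all genes were higher. SCC13 tumors differed from CAL27 tumors in 2 genes: ACTB was lower, where 7.95% of all genes were lower, and CALD1 was higher, where 9.79% were. Between CAL27 and A431 tumors 0 of the 10 genes passed by limma, where 3.06% of all genes were lower and 0.306% higher in CAL27. For CAL27 against A431, 4 of the 10 had an unadjusted p under 0.05 by limma, as did 58 of all 327 genes. With an own spread per line 5 of the 10 passed, and the counts over all genes are given at the end.

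ACTB averaged -2.65 ± 1.89 log units in SCC13 tumors and 0.04 ± 0.61 in A431 tumors (SD, n = 16 and 8). The difference was -2.69 log units (95% interval -3.93 to -1.45, limma adjusted p = 0.00142), the fourth-lowest of 327, and 15 of 16 SCC13 tumors lay below the A431 mean. Against CAL27 tumors, with a mean of -0.68 ± 0.76 (SD, n = 10), the difference was -1.97 log units (95% interval -3.12 to -0.82, limma adjusted p = 0.0111), with 14 of 16 SCC13 tumors below the CAL27 mean. With columns divided by their SD over genes the call against A431 held (limma adjusted p = 0.00793) and that against CAL27 was lost (limma adjusted p = 0.0817). Every SCC13 value of ACTB was at the floor, so the SCC13 spread behind these intervals is not that of ACTB itself.

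ARPC2 averaged -3.08 ± 1.70 log units in SCC13 tumors and -0.83 ± 0.88 in A431 tumors (SD, n = 16 and 8), a difference of -2.25 (limma adjusted p = 0.00583, but 0.471 with columns divided by their SD). For PFN1 the difference between these lines was -0.82 log units with a 95% interval of -2.23 to 0.59 (limma adjusted p = 0.452), and it turned to 1.56 on the divided scale, while the difference of the deposited values was -2.17 and passed (limma adjusted p = 0.0195). Against CAL27 tumors PFN1 in SCC13 differed by 1.08 log units (limma adjusted p = 0.26), which passed on the divided scale only, at 2.11 (limma adjusted p = 0.0203). In SCC13 tumors 13 of 16 PFN1 values and 9 of 16 ARPC2 values were at the floor, against 0 in CAL27 and A431 tumors. The SCC13 means and spread behind these differences are thus in part not those of the genes themselves.

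CFL1 did not pass between any pair of lines in the fit with 1 common spread. It averaged -2.14 ± 1.61 log units in SCC13 tumors, -3.00 ± 2.10 in CAL27 tumors and -0.71 ± 0.81 in A431 tumors (SD, n = 16, 10 and 8). The difference of -2.29 log units between CAL27 and A431 came closest (limma adjusted p = 0.0584). It passed without the fifth, the seventh, the ninth or the tenth CAL27 tumor or the seventh A431 tumor, with differences between -2.66 and -2.38, with the deposited values (-2.83, limma adjusted p = 0.0189) and with an own spread per line (limma adjusted p = 0.00444). The difference of -1.43 between SCC13 and A431 (limma adjusted p = 0.127) became -1.76 and passed without the third and seventh SCC13 columns (limma adjusted p = 0.0405), as did -2.77 with the deposited values (limma adjusted p = 0.00204) and -1.43 with an own spread per line (limma adjusted p = 0.0271).

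TPM2 averaged 3.96 ± 2.41 log units in SCC13 tumors and 0.86 ± 0.53 in A431 tumors (SD, n = 16 and 8). The difference was 3.10 log units (95% interval 1.69 to 4.50, limma adjusted p = 0.00121), the fifth-highest of 327, with 14 of 16 SCC13 tumors above the A431 mean. Against CAL27 the difference of 1.47 log units did not pass (limma adjusted p = 0.106), but did without the fifth or the seventh SCC13 tumor, at 1.70 and 1.72. CALD1 averaged 2.46 ± 1.68 log units in SCC13 tumors, 0.47 ± 1.43 in CAL27 tumors and 0.50 ± 0.35 in A431 tumors (SD, n = 16, 10 and 8). It was higher in SCC13 by 1.99 log units against CAL27 (limma adjusted p = 0.0107) and by 1.96 against A431 (limma adjusted p = 0.0182), with 15 of 16 SCC13 tumors above either mean.

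These differences of the filament-binding genes leaned on the scale. With columns divided by their SD, TPM2 and CALD1 no longer differed past the threshold between SCC13 and A431 tumors (limma adjusted p = 0.145 and 0.312), while CALD1 still did between SCC13 and CAL27 tumors (limma adjusted p = 0.0473). With the deposited values neither gene passed in these pairs.

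Between the cultures, 0 of the 10 genes passed by limma, where 2.75% of all genes were lower and 0.306% higher in CAL27. An unadjusted p under 0.05 was found for 5 of the 10 and for 74 of all 327 genes. ARPC2 came nearest, at -1.32 ± 0.07 log units in CAL27 cultures and -0.61 ± 0.12 in A431 cultures (SD, n = 2 each), a difference of -0.71 (limma adjusted p = 0.051, and 0.0296 with an own spread per group).

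**Figure D4:**
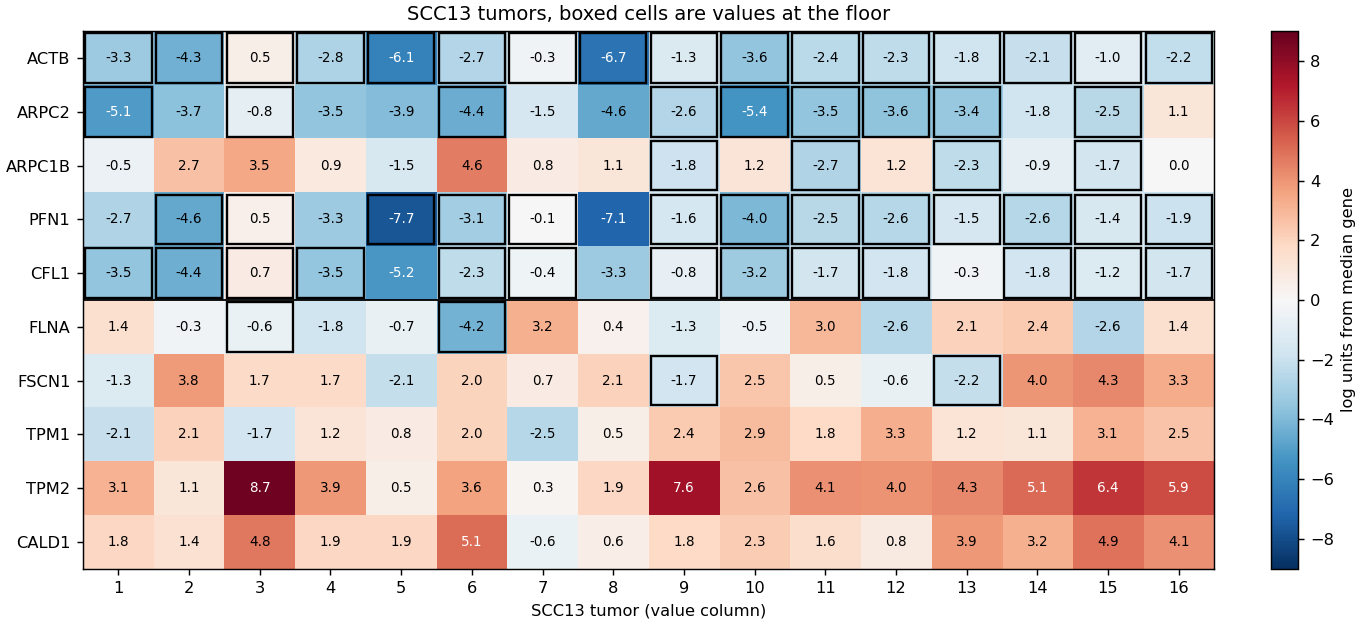
Log units from the median gene (colour and number) of each actin gene (rows, turnover genes above the line) in each of the 16 SCC13 tumors (columns); boxes mark values at the floor. ACTB is boxed in 16 of 16 tumors, PFN1 and CFL1 in 13, ARPC2 in 9 and ARPC1B in 4, while TPM1, TPM2 and CALD1 are never boxed.

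The turnover genes differed in how often they were at the floor. In SCC13 tumors ACTB was there in 16 tumors, PFN1 and CFL1 in 13, ARPC2 in 9 and ARPC1B in 4, against 2 for FLNA and FSCN1 and 0 for TPM1, TPM2 and CALD1. Of the 327 genes 28 were there in 13 or more tumors, and 105 never were. In the third column the floor values of ACTB (0.54), PFN1 (0.48) and CFL1 (0.71) stood above the median gene. Without the third and seventh columns the SCC13 means were -3.04 for ACTB, -3.36 for ARPC2, -3.34 for PFN1 and -2.47 for CFL1, and all 4 passed.

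Each actin gene was also set against every other gene by its pattern over the 38 columns. This is a description without a test, since the columns of a table have their initial cells, their floor and their spread in common. The nearest gene to ACTB was PABPC1, which encodes a protein that binds the poly(A) tail of mRNA (Pearson r = 0.75, Spearman rho = 0.69). The nearest to PFN1 was the tubulin gene TUBB (r = 0.69, rho = 0.68), and the nearest to CFL1 was MCM7 of the replicative helicase (r = 0.76, rho = 0.75). ARPC2 was nearest to PABPC1 at r = 0.53 and rho = 0.54. TPM2 and CALD1 were each other's nearest gene, at r = 0.64 and rho = 0.48 over 38 columns, of which they share exact values in 3. For the other 4 genes the nearest gene reached r between 0.43 and 0.56, namely NFYB for ARPC1B, CUX1 for FLNA, TUBA1B for FSCN1 and KDM5A for TPM1.

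Among the turnover genes, PFN1 and CFL1 were most alike (r = 0.56, rho = 0.65), followed by ACTB and CFL1 (r = 0.46, rho = 0.43). In SCC13 tumors PFN1 and CFL1 were each at the floor in 13 of 16 tumors and ACTB in 16. Genes at the floor in the same tumors can keep a fixed difference there by construction. The share of this in the likeness was not tested. Likeness also crossed the sets: CFL1 and TPM2 had r = 0.58 and rho = 0.53, and PFN1 and TPM2 had r = 0.50 and rho = 0.50. The Arp2/3 subunits ARPC2 and ARPC1B had r = 0.13 and rho = 0.03, and the tropomyosins TPM1 and TPM2 had r = 0.16 and rho = 0.25.

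Of a wider list of genes of the actin cytoskeleton, 4 others were measured: MYL12B (a myosin regulatory light chain), TMSB10 (thymosin beta 10, which binds single actin subunits), PDLIM1 (a partner of alpha-actinin) and BASP1 (a membrane-bound protein of the cell cortex). In SCC13 tumors 2 of 4 rose, PDLIM1 by 2.07 ± 2.31 log units and BASP1 by 1.84 ± 1.52 (SD, n = 16, limma adjusted p = 0.000218 and 0.000396), and 0 fell, where 23.5% of all genes rose and 23.9% fell. MYL12B and TMSB10 averaged -0.74 and -0.45 log units there and did not pass. These calls are on the centred scale. Against the non-targeting guides the SCC13 means were 0.45 for PDLIM1, 0.23 for BASP1, -2.36 for MYL12B and -2.07 for TMSB10. Whether these 4 genes pass on that scale was not examined. In CAL27 and A431 tumors and in both cultures 0 of the 4 passed in either direction by limma. An unadjusted p under 0.05 was found for 1 of 4 in A431 tumors (PDLIM1) and 1 in CAL27 cultures (MYL12B). Of all 327 genes, 107 and 126 had such a p there. BASP1 was also higher in SCC13 than in CAL27 tumors, by 1.63 log units (limma adjusted p = 0.0361), where 9.79% of all genes were higher.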

How the data were processed

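Guide RNAs were sequenced from genomic DNA of tumors, cultures and initial cells. Bowtie2 was used, per the submitters' processing notes; its version, the log base, any pseudocount, the build and how guides were joined per gene were not given in the sources used here. As deposited, there were 5 tables by the authors, of log fold changes per gene per the labels, without header or counts. The row of non-targeting guides was 0 in all 38 value columns. Each table had as many columns as its group had later samples, without replicate numbers.

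Columns were centred on their median over 327 genes and tested with limma 3.58.1 in R 4.3.3 (lmFit, eBayes, two-sided, Benjamini-Hochberg over 327 genes): each table against 0, tumors against culture in 1 fit per line, tumors of the 3 lines in 1 fit, and both cultures in 1 fit. Initial samples are in no test as replicates, so their own error is left out, and a p-value reflects nothing beyond the spread of these tumors or cultures, which may be technical. Intervals are limma's 95% intervals. The scripts were tested on simulated data. All 10 genes are named in every comparison, and other actin genes come from a list. The members, this list and the tests were chosen with earlier results of these data known. Alternatives were the deposited values, columns divided by their SD over genes and multiplied by the mean SD of the columns in the fit, robust eBayes, shared values left out, an exact sign-flip test, both culture tables in 1 fit, an own spread per group and leaving out each column. The own spread per group was tested by combining the limma standard errors of separate fits in a Welch-type test, with Benjamini-Hochberg adjustment. Guide and protein sequences were not used here.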

Additional observations from a re-analysis of the deposited data

Results flagged for a closer look

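Single tumors that stood apart were sought in the 20 combinations of an actin gene with the CAL27 or A431 tumors, where chance alone flags about 5% of tests. ACTB in the ninth CAL27 tumor was at 0.96 log units, above the other 9, which were all below 0. FSCN1 in the fourth A431 tumor was at 0.91 log units, above the other 7, of which the highest was 0.05.

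On the centred values, 4 genes differed past the threshold between tumors of the lines. SCC13 tumors differed from A431 tumors by -2.69 log units for ACTB, -2.25 for ARPC2, 3.10 for TPM2 and 1.96 for CALD1 (limma adjusted p = 0.00142, 0.00583, 0.00121 and 0.0182). SCC13 tumors differed from CAL27 tumors by -1.97 log units for ACTB and 1.99 for CALD1 (limma adjusted p = 0.0111 and 0.0107). With columns divided by their SD, the calls on ACTB against A431 and on CALD1 against CAL27 held, and the others were lost. With the deposited values, ACTB and ARPC2 kept their calls, and TPM2 and CALD1 lost theirs. For ACTB, all SCC13 values were floor values, and for ARPC2 9 of 16 were. The SCC13 tumors grew in another mouse strain, which cannot be told apart from the line.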

How the results depend on the processing

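No paired analysis was possible because the value columns carry no replicate numbers. With the deposited values, relative to the non-targeting guides, the sign turned for SCC13 tumors in ARPC1B (-1.34), FSCN1 (-0.44) and TPM1 (-0.47), for CAL27 tumors in ARPC1B (-0.58) and CALD1 (-0.35), for A431 tumors in ACTB (-0.23), for CAL27 cultures in FLNA (-0.13), TPM1 (-0.45), TPM2 (-0.48) and CALD1 (-0.48), and for A431 cultures in ARPC1B (-0.08), FSCN1 (-0.19), TPM1 (-0.33) and CALD1 (-0.33). Over all genes they gave more falls and fewer rises: 220 and 13 in SCC13 tumors against 78 and 77, 164 and 18 in CAL27 tumors against 72 and 61, 73 and 7 in A431 tumors against 39 and 26, 293 and 0 in CAL27 cultures against 61 and 16, and 136 and 1 in A431 cultures against 37 and 7. For SCC13 minus A431 they gave 121 and 5 against 35 and 34, for SCC13 minus CAL27 68 and 12 against 26 and 32, for CAL27 minus A431 tumors 24 and 1 against 10 and 1, and for the cultures 21 and 1 against 9 and 1. Of the 10 actin genes, deposited values gave 6 lower and 1 higher in SCC13 tumors, 5 lower and 1 higher in CAL27 tumors, 3 lower and 0 higher in A431 tumors, 9 lower in CAL27 cultures and 5 lower in A431 cultures; between lines, they gave 4 lower and 0 higher for SCC13 minus A431, 2 and 0 for SCC13 minus CAL27, 1 lower for CAL27 minus A431 tumors and 2 lower for the cultures.

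Columns divided by their SD gave, among the 10, 1 higher for CAL27 tumors minus culture (0 genes lower and 8 higher of all 327), 2 higher for A431 tumors minus culture (5 and 11 genes), 1 lower and 0 higher for SCC13 minus A431 (19 and 25 genes), and 0 lower and 2 higher for SCC13 minus CAL27 (22 and 29 genes). An own spread per group gave 3 lower and 2 higher in CAL27 tumors minus culture (49 genes lower and 58 higher in all), 2 higher in A431 tumors minus culture (18 and 22 genes), 3 lower and 2 higher in CAL27 minus A431 tumors (44 and 29 genes), and 1 lower in the cultures. Robust eBayes gave 1 higher (FLNA) in CAL27 cultures and 1 lower between the cultures, and leaving out shared values gave 1 and 1 there and 1 higher in A431 tumors. The exact sign-flip test gave 2 higher in SCC13 tumors, and 0 lower and 0 higher in A431 tumors, where 0 of all genes passed. The smallest adjusted p by this test among the 10 in A431 was 0.0655. As said above, with 8 tumors no single gene could pass this test by its own values.

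Leaving out 1 column gave 4 lower and 2 to 4 higher in SCC13 tumors, 3 to 4 lower and 2 to 3 higher in CAL27 tumors, 1 to 2 lower and 1 to 2 higher in A431 tumors, 3 lower in CAL27 cultures, 1 to 2 lower in A431 cultures, 1 to 2 higher in SCC13 minus CAL27 and 0 to 1 lower in CAL27 minus A431 tumors. With 1 culture left, both lines were fitted together and the lone culture was assumed to vary like the other line. The cause of these changes was not tested. Depth is unknown, so its limits cannot be given.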
